A study of Sus scrofa with 6 samples.

Results

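The collagens of types VI, IV, XVIII and VIII were described here in a red and a white muscle of the pig. They were taken from the authors' deposited table of probe sets that differed between the muscles, wherever its gene symbol or title named the type VI alpha 1 or alpha 3, type IV alpha 2, type XVIII alpha 1 or type VIII alpha 1 chain. They were thus chosen by the measured difference between these same arrays. This gave 6 probe sets of 5 genes (COL6A1, COL6A3, COL4A2, COL18A1 and COL8A1), out of 550 probe sets and 311 distinct gene names in that table and 23935 non-control probe sets on the array. COL6A1 and COL8A1 were named by symbol. The other 4 probe sets were named by a title alone, 2 through similarity to a human protein and 2 through similarity to a mouse protein. COL6A3 had 2 probe sets, which share their target gene and are not independent.

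RNA came from the soleus and the longissimus dorsi of 3 Meishan gilts of one litter, 150 days old and kept on one feeding regimen. The soleus, called SE in the protocol, is described there as an oxidative muscle and was sampled in its deep part. The longissimus dorsi, a back muscle, is described as fast-twitch and glycolytic and was sampled at the last rib. There were 3 Affymetrix porcine arrays of soleus and 3 of longissimus dorsi, a number that bounds how precise any value here can be. Pigs of one litter share parents. In whole muscle, fewer cells of a type and less RNA per cell cannot be told apart.

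Type VI collagen is a heterotrimer, usually of the alpha 1, alpha 2 and alpha 3 chains, that assembles into beaded microfilaments between the basement membrane of the muscle fibre and the surrounding interstitial matrix. In skeletal muscle it is made mainly by interstitial fibroblasts, and mutations of its chains cause the Ullrich and Bethlem myopathies in humans. Type IV collagen forms the sheet-like network of all basement membranes, in which chains of alpha 1 and alpha 2 are the common form. Type XVIII is a basement membrane collagen with heparan sulfate chains, and type VIII is a short-chain, network-forming collagen known from the vessel wall and the cornea.

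Each value is a log2 expression from which the authors had subtracted the median of that probe set over the 6 arrays. Differences between muscles can therefore be read from them, but no level of one gene can be set against that of another. The authors kept probe sets with an unadjusted p-value under 0.05 and a fold of at least 1.5 in this same contrast. Which muscle was higher, the sizes and the lack of overlap below follow in part from that choice. They are a description, and no test of them is given as support.

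All 6 probe sets had higher means in soleus, by 0.64 to 1.26 on the log2 scale (1.56-fold to 2.39-fold, SE 0.19 to 0.26), with a median of 0.81. Type VI collagen had the larger differences, and the type IV, XVIII and VIII chains the smaller ones, though the differences between genes were not tested. The median over all 23935 probe sets was -0.03, and 95% of them had a signed difference below 0.54. A difference larger than that of the members was found for 0.37% of all probe sets at the upper end (COL6A3) and for 3.30% at the lower end (COL8A1).

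**Figure D1:**
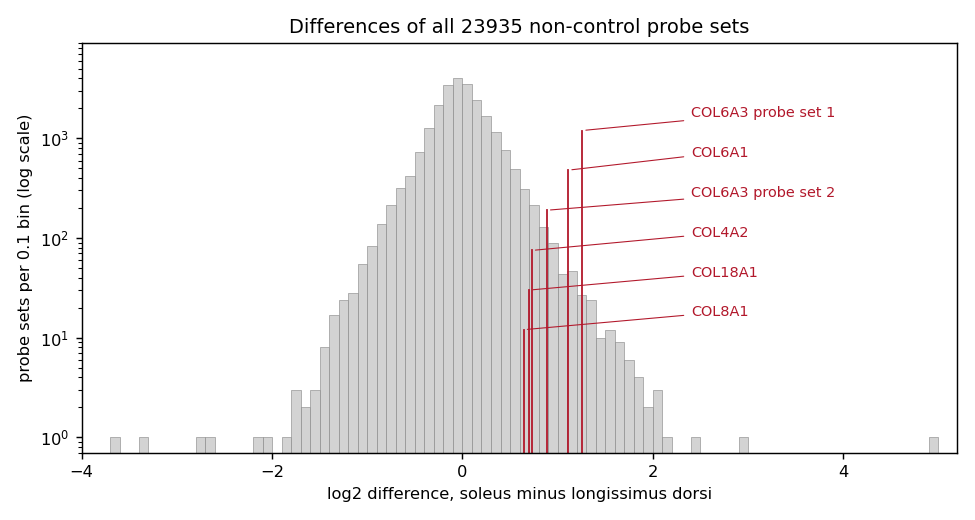
Histogram of the log2 difference, soleus minus longissimus dorsi, over all 23935 non-control probe sets (vertical axis on a log scale, number of probe sets per bin of 0.1). Red lines mark the 6 collagen probe sets, which lie between 0.64 and 1.26 in the right-hand tail; line heights only separate the labels.

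COL6A1, the chain that with alpha 2 and alpha 3 builds the type VI monomer, had log2 values of 0.50, 0.41 and 1.08 on soleus replicates 1, 2 and 3, against -0.41, -0.44 and -0.49 on longissimus dorsi replicates 1, 2 and 3. All 3 soleus arrays were above all 3 longissimus dorsi arrays, which were nearly level with each other. The means were 0.66 ± 0.36 in soleus and -0.45 ± 0.04 in longissimus dorsi (SD, n = 3 arrays each), a 2.16-fold difference (log2 difference 1.11, SE 0.20). Of the 6 probe sets it had the widest gap between the muscles, 0.83 from the lowest soleus to the highest longissimus dorsi value.

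COL6A3 encodes the longest of these type VI chains, whose carboxy-terminal end is cut off as endotrophin. Its first probe set had log2 values of 0.49, 0.36 and 1.28 on soleus replicates 1, 2 and 3, against -0.36, -0.47 and -0.81 on those of longissimus dorsi. The means were 0.71 ± 0.50 in soleus and -0.55 ± 0.23 in longissimus dorsi (SD, n = 3 each), a 2.39-fold difference (log2 difference 1.26, SE 0.26). This was the largest difference of the 6 probe sets, with a gap of 0.73 between the muscles.

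The second COL6A3 probe set had log2 values of 0.29, 0.19 and 0.96 on soleus replicates 1, 2 and 3, against -0.63, -0.41 and -0.19 on those of longissimus dorsi. Its means were 0.48 ± 0.42 in soleus and -0.41 ± 0.22 in longissimus dorsi (SD, n = 3 each), a 1.85-fold difference (log2 difference 0.89, SE 0.24). The soleus arrays stood in the same order on both probe sets. The longissimus dorsi arrays stood in opposite order, with replicate 3 lowest on the first probe set and highest on the second. The mean of the 2 probe sets was nearly level in longissimus dorsi (-0.50, -0.44 and -0.50 on replicates 1, 2 and 3), as was COL6A1.

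**Figure D2:**
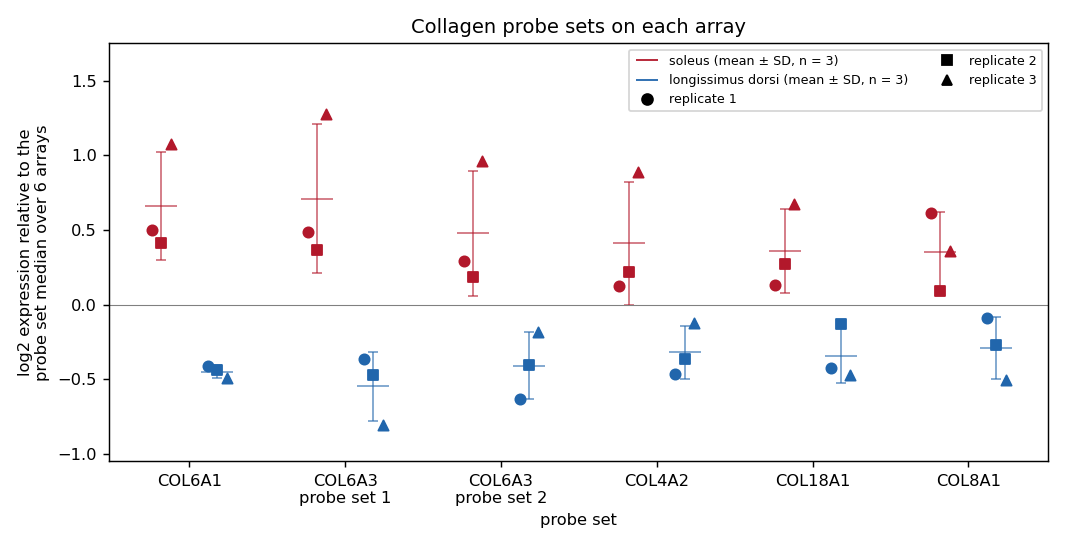
Log2 expression relative to the probe set median (vertical axis) for the 6 collagen probe sets, with soleus in red left of longissimus dorsi in blue, a symbol per replicate, and the mean ± SD of 3 arrays. All soleus points lie above all longissimus dorsi points of the same probe set, soleus replicate 3 (triangle) is the highest in all but COL8A1, and the narrowest spread is that of COL6A1 in longissimus dorsi (SD 0.04).

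COL4A2, the alpha 2 chain of the basement membrane network, whose carboxy-terminal domain is known as canstatin, had smaller differences. Its log2 values were 0.12, 0.22 and 0.89 on soleus replicates 1, 2 and 3, against -0.47, -0.37 and -0.12 on those of longissimus dorsi. Soleus replicate 3 lay far above the other two, and the gap between the muscles was 0.25. The means were 0.41 ± 0.42 in soleus and -0.32 ± 0.18 in longissimus dorsi (SD, n = 3 each), a 1.66-fold difference (log2 difference 0.73, SE 0.23). Without soleus replicate 3 it was 1.40-fold (log2 difference 0.49).

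COL18A1, the basement membrane collagen whose carboxy-terminal fragment is endostatin, had log2 values of 0.13, 0.27 and 0.67 on soleus replicates 1, 2 and 3, against -0.43, -0.13 and -0.47 on those of longissimus dorsi. Soleus replicate 3 was again the highest, and longissimus dorsi replicate 2 came nearest to soleus, with a gap of 0.27. The means were 0.36 ± 0.28 in soleus and -0.34 ± 0.18 in longissimus dorsi (SD, n = 3 each), a 1.63-fold difference (log2 difference 0.70, SE 0.19). It was 1.46-fold without soleus replicate 3.

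COL8A1, which encodes a chain of the short-chain type VIII collagen, lay just inside the authors' fold limit of 1.5, at 1.56-fold (log2 difference 0.64, SE 0.19). It had log2 values of 0.61, 0.09 and 0.36 on soleus replicates 1, 2 and 3, against -0.09, -0.27 and -0.50 on those of longissimus dorsi. Here soleus replicate 1, not 3, was the highest array, and the gap of 0.18 between the muscles was the smallest of the 6 probe sets. The means were 0.35 ± 0.26 in soleus and -0.29 ± 0.21 in longissimus dorsi (SD, n = 3 each). The fold was 1.43 without soleus replicate 1 and 1.45 without longissimus dorsi replicate 3.

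No further probe set of these genes was named in the authors' table, so none could be read just outside the limit. Identifiers of 5 further probe sets carry the design number of the COL6A1 (2) or COL8A1 (3) probe set, but they have no name in the files and are not assigned to a gene here. They were looked up after the values of the 6 had been seen. Their log2 differences were -0.04 and 0.38 beside COL6A1 and -0.09 to 0.31 beside COL8A1, all below the smallest of the 6. The soleus arrays were above all longissimus dorsi arrays in 2 of the 5.

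The 3 soleus arrays lay above the 3 of longissimus dorsi for 6 of 6 members, where this held for 1455 of all probe sets (6.08%). In limma, an unadjusted p under 0.05 with at least 1.5-fold in favour of soleus was reached by 692 probe sets (2.89%). As the rule requires nearly the same, 6 of 6 members reached it. The authors' table, made with their own test, lists 323 probe sets higher in soleus. After Benjamini-Hochberg adjustment over all probe sets, limma called 0 of 6 members (adjusted p = 0.306 to 0.485) and 2 probe sets in all (0.00836%). At an unadjusted p under 0.05 in either direction it called 6 of 6 members and 8.46% of all probe sets, a limit close to the one the members were chosen by. The unpaired test of the authors' table, with the same adjustment, called 0 of 6 (adjusted p = 0.631 to 0.760). In the authors' deposited table, the unadjusted p-values of the members ran from 0.00606 (COL6A1) to 0.0490 (COL4A2).

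Most members had their highest value on soleus replicate 3. It was the highest array for 5 of 6 members, compared with 61.3% of the 1455 probe sets whose soleus arrays were all above those of longissimus dorsi. This array also had the widest values of all, their SD over all probe sets being 0.50 there and 0.24 to 0.31 elsewhere. On the first principal component it scored 68.3, where the others lay between -28.8 and 5.10. Its added bacterial dap and thr control transcripts averaged 0.81, against -0.45 to 0.20 on the other arrays. The difference between the 3′ and 5′ control probe sets of actin was -0.60 on this array, against -0.16 to 0.17 on the others, and that of the elongation factor EF1A was -0.22, against -0.02 to 0.13. For GAPDH it was -0.01, within the range of the others (-0.05 to 0.01). The control values are also centred on each probe set's median, so they compare arrays and do not give a 3′ to 5′ signal difference. The part of these array properties in the collagen values was not tested.

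Ranks within an array do not depend on how wide its values are, but they rank deviations from each probe set's median, not levels, and high ranks on soleus follow in part from how the members were chosen. COL6A1 stood above 93.8%, 94.7% and 97.8% of all probe sets on soleus replicates 1, 2 and 3, and the first COL6A3 probe set above 93.6%, 93.1% and 99.0%. The second COL6A3 probe set stood above 87.7%, 82.1% and 96.7%. COL4A2 stood above 77.6%, 85.0% and 95.9%, and COL18A1 above 78.5%, 88.7% and 92.5%. On soleus replicate 2 both of these stood above the second COL6A3 probe set, and on replicate 1 below it. COL8A1 stood above 95.7%, 70.0% and 83.2%. On longissimus dorsi replicates 1, 2 and 3, COL6A1 stood above 6.46%, 2.97% and 3.09% of all probe sets.

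Leaving out soleus replicate 3 gave log2 differences of 0.91 for COL6A1, 0.97 and 0.65 for the first and second COL6A3 probe set, 0.49 for COL4A2, 0.55 for COL18A1 and 0.64 for COL8A1. The type VI probe sets and COL8A1 were then still past 1.5-fold, and COL4A2 and COL18A1 were not. The median over the 6 probe sets was 0.64 without that array.

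**Figure D3:**
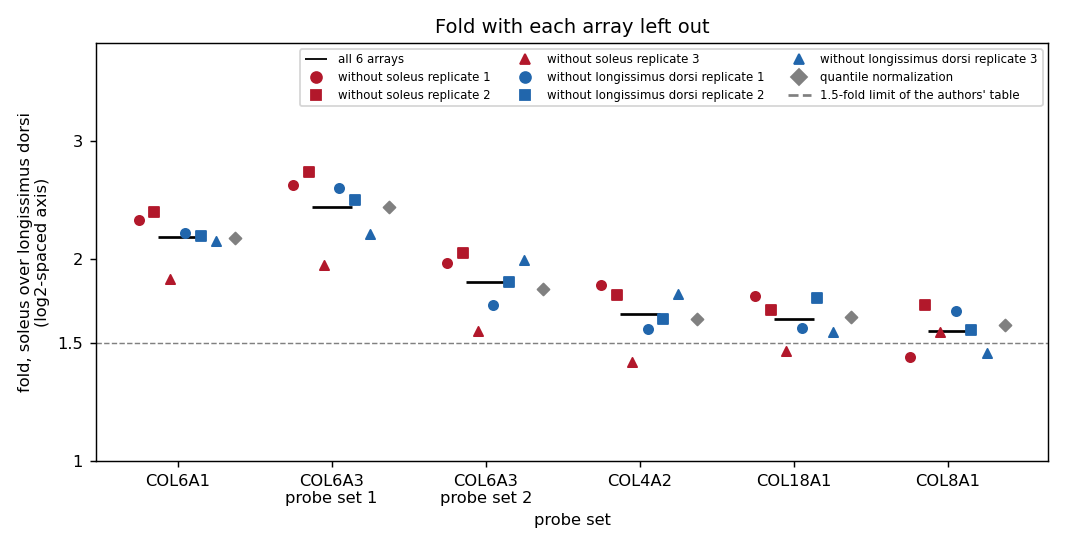
Fold of soleus over longissimus dorsi (vertical axis, log2-spaced) for each collagen probe set with all 6 arrays (black bar), with each array left out (red for a soleus array, blue for a longissimus dorsi array) and after quantile normalization (grey diamond). The red triangle, without soleus replicate 3, is the lowest point for all but COL8A1, and the dashed line marks 1.5-fold.

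Over the 6 arrays, the members' profiles correlated with each other at r = 0.60 to 0.99 (15 pairs, median 0.91). The points share their arrays, and the muscle difference for which the members were chosen raises all of these values. After subtracting each muscle's mean, the 10 pairs among the type VI, IV and XVIII probe sets had r = 0.61 to 0.97. COL4A2 and the second COL6A3 probe set were the closest of them (0.97), followed by COL6A1 and the first COL6A3 probe set (0.95). The 5 pairs with COL8A1 had r = -0.31 to 0.36. Without soleus replicate 3, 7 of the same 10 pairs had r below 0 over the 5 arrays left, in a range from -1.0 to 0.86. The 2 closest pairs, which had been picked with that array included, were at 0.86. The 2 COL6A3 probe sets were then at -0.85 with each other. The pairs with COL8A1 then ran from -0.79 (COL4A2) to 0.99 (COL6A1), so COL8A1 no longer stood apart. With 5 arrays and each muscle's mean subtracted, values far from 0 in either direction are easily reached, so no pair is singled out.

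**Figure D4:**
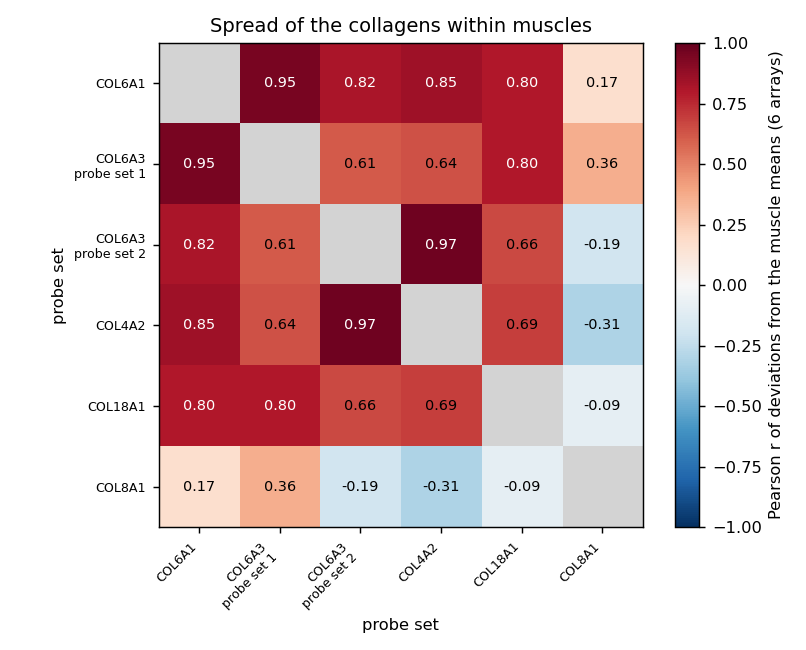
Pearson correlation of the deviations from the muscle means over 6 arrays for each pair of collagen probe sets (colour from -1, blue, to 1, red; grey on the diagonal). The pairs among the first 5 probe sets have r of 0.61 to 0.97, and COL8A1 in the last row and column has r of -0.31 to 0.36. Without soleus replicate 3 (not shown) the COL8A1 pairs ran from -0.79 to 0.99.

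The mean of the 5 genes was 0.35, 0.25 and 0.82 on soleus replicates 1, 2 and 3, against -0.38, -0.33 and -0.42 on those of longissimus dorsi. The longissimus dorsi arrays were nearly level (SD 0.04), while the soleus arrays spread more widely (SD 0.30). For each of the 6 probe sets the SD was larger in soleus (0.26 to 0.50) than in longissimus dorsi (0.04 to 0.23). The share of all probe sets for which this held was not counted. Over all probe sets, values were widest on soleus replicate 3 (SD 0.50, against 0.24 to 0.31 on the other arrays), so the wider spread cannot be called particular to the collagens.

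The genes whose pattern was most like this mean were sought among the 306 other gene names of the authors' table, by Pearson's r over the 6 arrays. Probe sets of that table differ between the muscles, so high values are likely among them. Of all non-control probe sets on the array, the members included, 169 (0.706%) had an r of at least 0.95. The share among the 354 probe sets searched was not counted. A probe set similar to bovine interleukin 27, a cytokine subunit, had the highest value (0.993). It was followed by platelet phosphofructokinase, a glycolytic enzyme (0.992), and SEC31-like 1, a coat protein of vesicles that leave the endoplasmic reticulum (0.991). Adipocyte enhancer binding protein 1, which has a secreted collagen-binding form, had 0.990. The receptor tyrosine kinase AXL had 0.987, the matrix glycoprotein thrombospondin 3 had 0.986, transforming growth factor beta induced had 0.985, and CYP27A1, a sterol 27-hydroxylase, had 0.984. Their log2 differences were 0.73 (SEC31-like 1) to 1.60 (thrombospondin 3).

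Of other genes of the same matrix, those named in the authors' table could be read, and all were kept there for differing between these arrays. In that table, 323 of the 550 probe sets (58.7%) were higher in soleus, so a higher mean in soleus was common among its named genes. Among 22 genes of basement membranes, 1 was named, the matrix protein fibulin 2 (FBLN2). It had log2 values of 0.30, 0.23 and 1.25 on soleus replicates 1, 2 and 3, against -0.47, -0.23 and -0.44 on those of longissimus dorsi (log2 difference 0.97, SE 0.28). As for COL4A2, soleus replicate 3 lay far above the other two. The partner chain COL4A1, whose gene lies next to COL4A2 in the pig genome, and the laminins and nidogens had no name among these probe sets and were not analysed here.

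Among 11 partners of type VI collagen, 1 was named, biglycan (BGN), a small proteoglycan that binds it. Biglycan had 0.84, 0.16 and 0.67 on soleus replicates 1, 2 and 3, against -0.35, -0.16 and -0.33 on those of longissimus dorsi (log2 difference 0.84, SE 0.20), with soleus replicate 1 highest, as for COL8A1. COL6A2, the remaining chain of the common type VI trimer, was not named and not analysed here. None of 12 collagen receptors was named. Of 21 genes of collagen synthesis and cross-linking 1 was named, lysyl oxidase-like 3 (LOXL3), which oxidises lysines for cross-links and differed by 1.37 (SE 0.34).

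Of 15 genes of collagen breakdown 3 were named, and all had higher means in soleus. The membrane-bound collagenase MMP14 differed by 0.77 (SE 0.23), the lysosomal protease cathepsin B (CTSB) by 0.67 (SE 0.21), and TIMP3, a matrix-bound inhibitor of metalloproteinases, by 0.61 (SE 0.18). Neither these 3 genes nor LOXL3, biglycan and fibulin 2 passed the adjusted threshold in limma.

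Of 16 other collagens 6 were named, with 9 probe sets, and all 6 had higher means in soleus. By the highest probe set of each gene, the fibrillar chains COL1A2, COL1A1 and COL5A1 had the largest differences, at 1.82, 1.63 and 1.34. Their other probe sets, at 0.64, 0.91 and 0.67, had the smallest differences of the 9, so this order depends on the probe set taken. Over the 9 probe sets the log2 differences ran from 0.64 to 1.82 with a median of 1.22, beside 0.64 to 1.26 and a median of 0.81 for the type VI, IV, XVIII and VIII probe sets. The ranges overlap, and the difference between both sets was not tested. On soleus replicate 1 the other collagens averaged 0.85, and the 5 genes described here 0.35. On soleus replicates 2 and 3 the means were closer, at 0.30 and 1.02 for the other collagens and 0.25 and 0.82 for the 5 genes.

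Markers of cells that make these collagens could be read only as far as they were named. Of 8 fibroblast markers 2 were named, dermatopontin (DPT) and THY1, both higher in soleus by 1.48 and 0.92. Their mean was 1.18, 0.28 and 0.92 on soleus replicates 1, 2 and 3 and -0.44 to -0.37 on the longissimus dorsi arrays. Of 8 smooth muscle and pericyte markers 2 were named, calponin (CNN1) and smooth muscle myosin (MYH11), with a mean of 1.16, 0.26 and 0.33 on soleus replicates 1, 2 and 3 and -0.69 to -0.30 on the longissimus dorsi arrays. Soleus replicate 1 was the highest array for CNN1, MYH11, DPT, the fibroblast mean and COL8A1, and soleus replicate 3 for the other members. THY1 was highest on soleus replicate 3, though nearly level with replicate 1 (0.977 against 0.971). Replicate 1 was also the highest for biglycan, COL12A1, and the COL1A1 and COL1A2 probe sets with the smaller difference. The remaining probe sets of the other collagens were highest on soleus replicate 3. Among the named tendon markers, only tenascin C was highest on replicate 1. Of 7 tendon markers 4 were named, among them fibromodulin (FMOD), tenascin C (TNC) and thrombospondin 4 (THBS4), which were higher in soleus by 1.64, 1.41 and 0.62, with a list mean of 0.43 to 0.59 on the soleus arrays and -0.68 to -0.31 on those of longissimus dorsi. The part of these cell types in the collagen values was not tested.

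**Figure D5:**
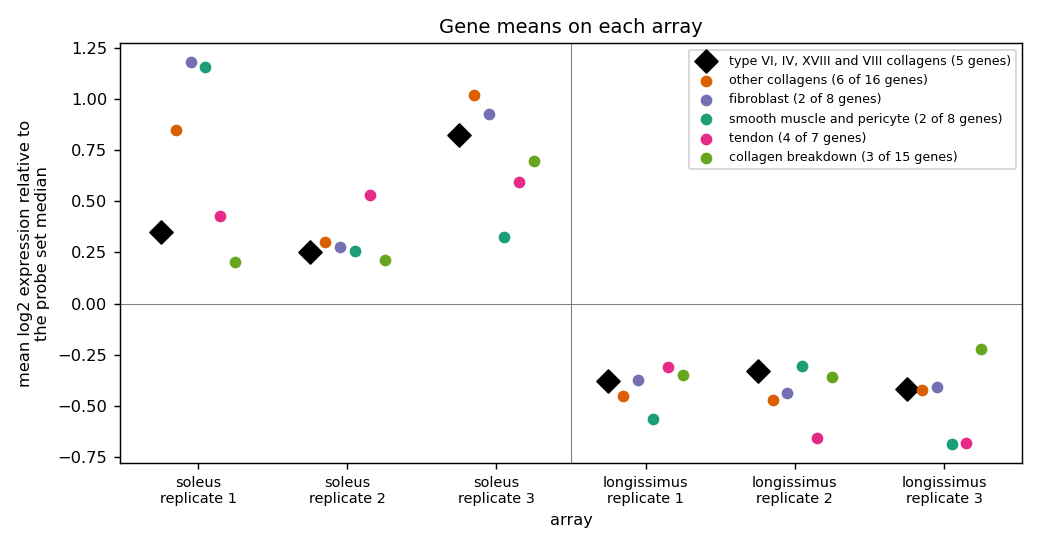
Mean log2 expression relative to the probe set median (vertical axis) on each of 6 arrays for the 5 collagen genes (black diamonds) and for the named genes of 5 lists (coloured points, side by side within an array). The collagen genes are at 0.35, 0.25 and 0.82 on the soleus arrays, while on soleus replicate 1 the smooth muscle and pericyte markers reach 1.16 and the fibroblast markers 1.18.

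None of 8 endothelial and 6 adipocyte markers was named. Of 6 leukocyte markers LAPTM5 was named, higher in soleus by 0.65, and of 6 nerve markers myelin basic protein (MBP) was named, lower in soleus by 0.91 (log2 difference -0.91). The labels of the muscles could be checked against few fibre-type genes, 2 of 8 slow markers and 1 of 8 fast ones. MYOZ2 (calsarcin 1), which sits at the Z-disc of slow fibres, was higher in soleus by 0.86, and the fast myosin MYH4 was lower (log2 difference -0.59), whereas a probe set similar to bovine slow myosin heavy chain was lower in soleus (log2 difference -0.98), against the oxidative label.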

How the data were processed

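Biotin-labelled RNA of 2 muscles of 3 pigs was measured on porcine GeneChips (Affymetrix), per the labels. MAS5 (version 2.3.1) is listed, without its role, per the submitters' processing notes. How arrays were scaled is not given in the sources used here. Deposited values are log2 expression centred on each probe set's median over the 6 arrays (found from the values, within 5e-07), so signal over background is unknown. The authors' table gives an unadjusted p-value and a linear fold, with limits of 0.05 and 1.5 per the file headers; its "down" means higher in soleus.

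From these values, 188 control probe sets were left out and 23935 were fitted with limma 3.58.1 in R 4.3.3 (lmFit, eBayes; soleus minus longissimus dorsi, unpaired), calling an adjusted p (Benjamini-Hochberg) under 0.05. The fit was tested on simulated data with 200 changed probe sets. Counts, correlations and figures used Python 3.11.15 and matplotlib 3.10.9.

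The members and the gene lists were chosen with earlier results of these data known. All members are named. From each list up to 3 named genes with the largest difference are given, by symbol or by a title matched by hand, and of genes outside the authors' table none could be named. The 8 most alike genes follow a rule on r. Alternatives were quantile normalization, a replicate block, an unmoderated test, the authors' limits and leaving out each array. The labels do not say whether a replicate number marks a pig, so p-values measure the spread between arrays. No sequences are given, and no genome coordinates, since the files name no genome build; that COL4A1 neighbours COL4A2 was read from RefSeq's Sscrofa11.1 gene table.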

Additional observations from a re-analysis of the deposited data

How the results depend on the processing

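Over 9 alternatives and 6 collagen probe sets, 54 of 54 comparisons kept the direction and stayed short of the adjusted threshold (limma or the unmoderated test, adjusted p = 0.0837 to 0.990). Since the probe sets were picked from these arrays, this says nothing about stability. Their median difference of 0.81 was 0.78 after quantile normalization, 0.73 with 1 value per gene and 0.64 to 0.93 over the left-out arrays. It was also 0.81 with a replicate block, which was added after seeing the data. The block and the unmoderated test cannot change a difference in this balanced design, so their directions were fixed in advance. Of the 6 probe sets, 4 were past 1.5-fold without soleus replicate 3, and 5 without soleus replicate 1 or longissimus dorsi replicate 3.

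Over all probe sets the 2 adjusted calls became 6 with quantile normalization and 7 with the replicate block. They were 1 to 4 over the left-out arrays, with 4 without soleus replicate 3 and 1 without longissimus dorsi replicate 1. At the authors' limits (unadjusted p and 1.5-fold), but with limma's p, 1219 probe sets were called, where the authors' own table lists 550. The causes were not tested. Deviations of same-numbered arrays correlated at -0.14, 0.11 and 0.25 for replicates 1, 2 and 3, which does not settle whether a number marks a pig. Soleus replicates 1 and 2 correlated best with the longissimus dorsi replicates 2 and 1, and replicate 3 with its own number. Signal over background is unknown.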
